A study of Mus musculus with 30 samples.

Results

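The 6 libraries described here hold RNA of microglia, macrophages that reside in the brain, from primary mouse cultures, after 8 h in conditioned medium containing amyloid-beta: 3 labelled PD-1 KO and 3 labelled wild type (WT). They were taken by their labelled condition from a series of 30 RNA sequencing libraries, which also holds 3 libraries of each genotype at 0 h, at 2 h and 8 h without amyloid-beta, and at 2 h with it. The microglia came from mouse brains and were shaken off their culture dishes after several days of primary culture. The labels give neither strain nor age, do not say which part of the PD-1 gene was deleted or what medium the untreated cultures received, and do not say whether the 3 libraries of a group came from different animals. The p-values below therefore measure the spread between libraries of a group, which may be technical. Except in the permutation test of the PD-1 gene, that spread was pooled over all 30 libraries of the series.

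PD-1, encoded by Pdcd1, is an inhibitory receptor best known from activated T cells. Its ligands PD-L1 and PD-L2 engage it on another cell, and its cytoplasmic tail then recruits phosphatases that dampen activating signals. Microglia bind amyloid-beta through scavenger, Fc and TREM2 receptors and break it down in lysosomes, and the title of the series names loss of PD-1 and microglial phagocytosis in mice with plaques. In culture, microglia are commonly grown over a layer of astrocytes and shaken off it, so genes of astrocytes and other brain cells are looked at first.

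All values are written as normalised values: the authors scaled each library's gene counts by its size factor and raised anything lower to 1. Fold changes are differences of log2(value + 1), libraries labelled PD-1 KO minus libraries labelled WT, with standard errors from 1 limma fit over all 30 libraries, and adjusted p-values follow Benjamini and Hochberg over the 13722 genes tested. A gene is called higher or lower when its adjusted p is under 0.05. The recovered depth was 12016664, 43404845 and 25257183 reads under the PD-1 KO label, against 9877660, 7177909 and 17064350 reads under the WT label. The floor of 1 held 25 to 59 genes under the PD-1 KO label and 253 to 329 under the WT label. The 10 highest genes took 9.31% to 10.2% of the summed values under the PD-1 KO label and 12.5% to 12.7% under the WT label.

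Pdcd1 (chromosome 1, 94038305 to 94052553, minus strand, GRCm38) went against the labels. Its normalised values were 17.6, 9.96 and 12 in the 3 libraries labelled PD-1 KO (mean 13.2 ± 3.99, SD, n = 3; 22 to 46 reads), against the floor of 1 in all 3 labelled WT. A limit of 3 reads over the 2 WT libraries whose floor hides no read corresponds to a value of 1.85. Against that limit the mean with the PD-1 KO label was at least 7.14-fold higher, with counting error only behind that bound. The exact two-sided permutation test gave p = 0.1, the smallest that 3 against 3 libraries allow. The other 12 libraries labelled PD-1 KO held 6.02 to 25.3, and the other 12 labelled WT held the floor value. Gene-level values do not show which exons these reads cover. A deleted allele that still gives reads and an exchange of the 2 genotype labels cannot be told apart here, and an exchange would turn every direction below. The genotypes are named as labelled throughout.

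Between the genotype labels, 4626 of 13722 genes (33.7%) were called. The median log2 fold change over all tested genes was -0.03. Of the called genes, 3023 were higher (22% of those tested) and 1603 were lower (11.7%) in the libraries labelled PD-1 KO. These 2 shares are the background for each count of higher or lower list members in the main test below. Differences of 2-fold or more were mostly increases, with 2200 called genes higher by that much and 119 lower. The values of the 3 and 3 libraries did not overlap for 55.6% of all genes tested, which is the background for each statement on overlap below. The direction of the smaller differences depended on scaling. After quantile normalization 2151 genes were higher and 3113 lower, with the median over all genes at -0.12, and after centring each library on its microglial markers 3012 were higher and 528 lower, with the median at 0.10. With a minimum fold of 1.5 in the test, 1688 genes were higher and 63 lower. These counts, out of 13722 genes, are the background for list counts under the same setting below.

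**Figure D1:**
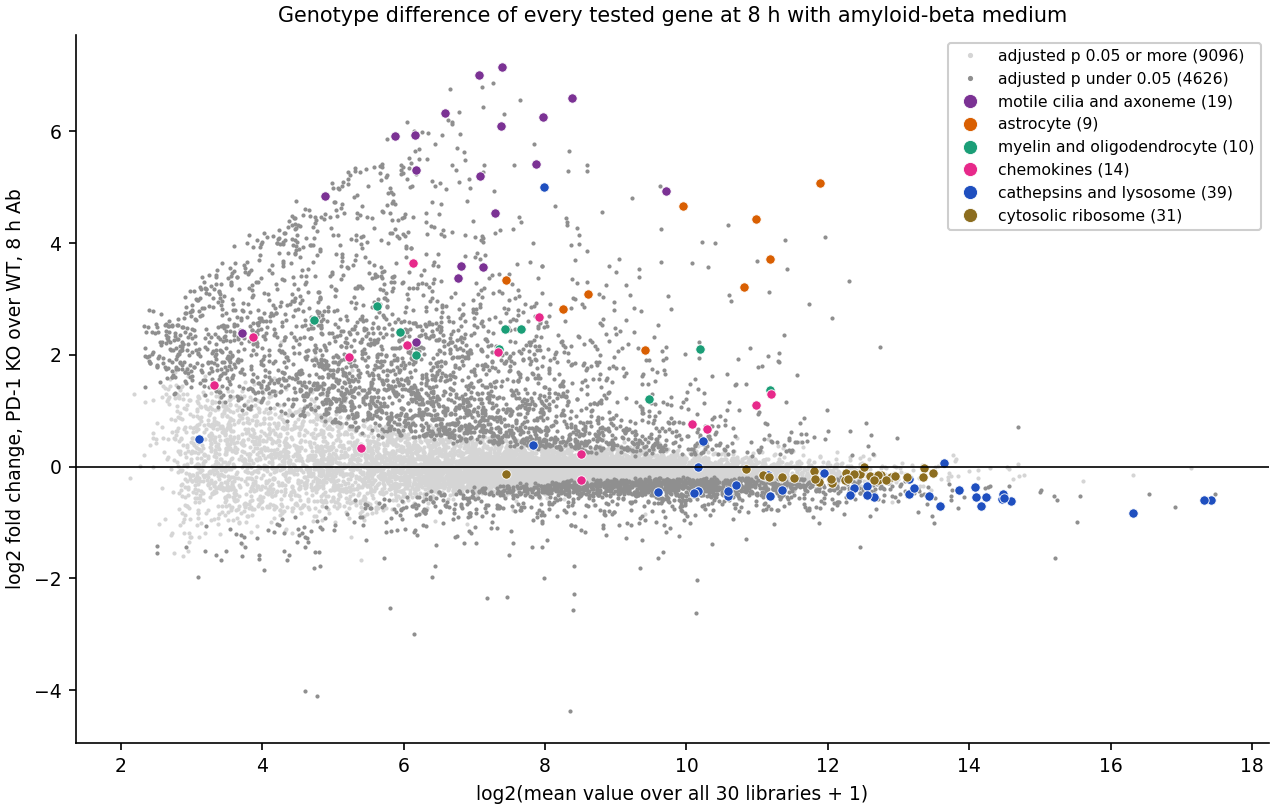
Log2 fold change (libraries labelled PD-1 KO over those labelled WT, 8 h with amyloid-beta) of each of the 13722 tested genes against its mean level, with 6 gene lists coloured. Cilia, astrocyte and myelin genes lie above 1 on the vertical axis, while most lysosomal genes lie between -0.83 and 0.

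Genes of cells other than microglia made up the largest differences. All 9 tested astrocyte markers, all 19 genes of motile cilia and all 10 myelin genes were higher under the PD-1 KO label, with median log2 fold changes of 3.34, 5.31 and 2.25. Summed over the 9 astrocyte markers, the normalised values were 18309, 33552 and 20242 in the libraries labelled PD-1 KO, against 1623, 1492 and 1573 in those labelled WT. Over the 19 cilia genes, the sums were 5021, 10633 and 5222 in the libraries labelled PD-1 KO, against 224, 172 and 212 in those labelled WT. The sums over the 14 general markers of microglia and macrophages went the other way, at 109463, 96005 and 107163 in the libraries labelled PD-1 KO, against 129318, 127894 and 131249 in those labelled WT. No sum of these 3 lists overlapped between the labels. Singly, 5 of the 14 microglial markers were lower, 2 were higher and 7 were not called (median -0.23). After quantile normalization 3 of them were lower and 4 higher (median -0.008). None of the 14 microglial markers lay at the floor in any of the 6 libraries, but neither did any tested astrocyte, myelin or neuron marker, so the floor does not set the labelled cell type apart from these. In bulk samples, fewer cells of a type and less RNA per cell of that type cannot be told apart. The part that RNA of these other cell types had in the gene groups described after them was not tested.

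**Figure D2:**
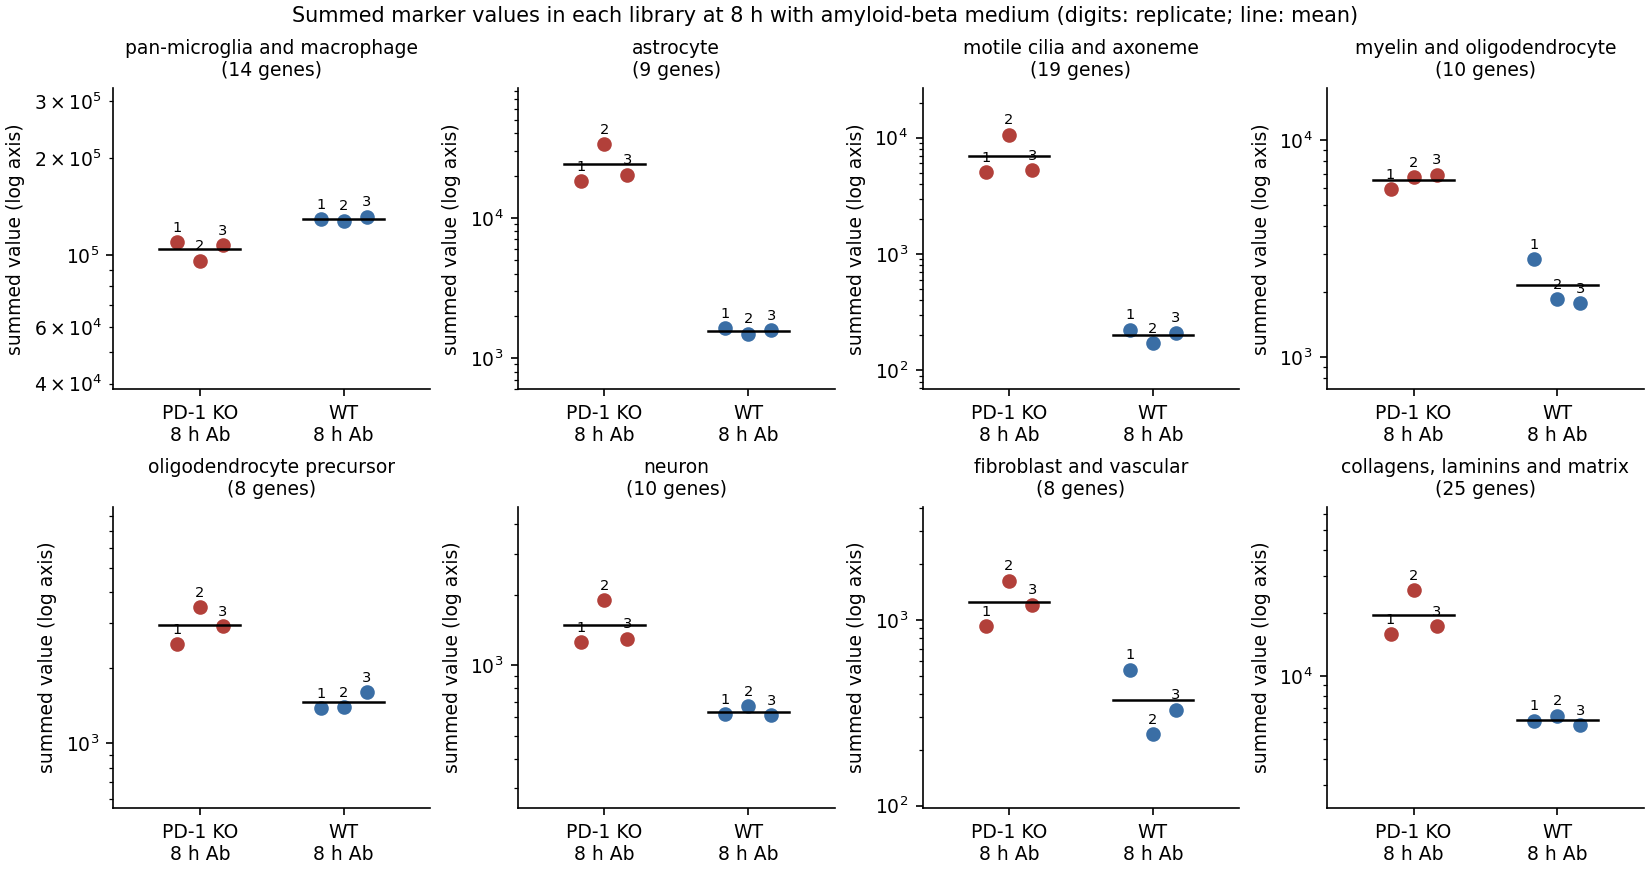
Summed normalised value of 8 marker lists in each library at 8 h with amyloid-beta (log axes; each point is 1 library, digits give its replicate number and lines the group mean). The libraries labelled PD-1 KO lie above those labelled WT in every panel but the microglial one, and their replicate 2 is the highest of the 3 for astrocyte, cilia, precursor, neuron, fibroblast and matrix genes.

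Among astrocyte genes, Gfap, the intermediate filament of astrocytes, had 5459, 10809 and 6049 in the libraries labelled PD-1 KO, against 231, 168 and 239 in those labelled WT (log2 fold change 5.07 ± 0.34, adjusted p = 1.25e-11). Aqp4, the water channel of astrocyte endfeet, had 3058, 5172 and 3568 in the libraries labelled PD-1 KO, against 169.8, 166 and 194 in those labelled WT (4.44 ± 0.30, adjusted p = 1.26e-11). Gja1, a gap junction protein, differed by 4.66 ± 0.35 and Slc38a3, a glutamine transporter, by 5.02 ± 0.30. In each of these 4 genes the lowest library labelled PD-1 KO lay over 10-fold above the highest labelled WT. None of these genes lay at the floor in the WT libraries, and which cells those reads came from was not tested. Replicate 2 labelled PD-1 KO, the deepest library, was the highest of its group for all 9 astrocyte markers and all 19 cilia genes. The same held for 12 of the 14 reactive astrocyte and acute-phase genes. Over all 13722 tested genes, replicate 2 was the highest of its group for 5793. Its part in the differences can be measured: without it the astrocyte, cilia and myelin lists kept all their higher members, with medians of 3.0, 4.92 and 2.23.

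The list with the highest median was that of multiciliated cells, which line the ventricles of the brain and move fluid with beating cilia. Foxj1, the transcription factor that switches on motile cilia, had 1277, 2734 and 1452 in the libraries labelled PD-1 KO, against 59.4, 57.3 and 50.7 in those labelled WT (4.92 ± 0.35, adjusted p = 2.31e-11). Dnah6, an axonemal dynein heavy chain, had 569.6, 1195 and 609 in the libraries labelled PD-1 KO, against 8.49, 2.94 and 11.1 in those labelled WT (6.6 ± 0.68). Tekt1, a filament protein of the axoneme, had 142, 315 and 159 in the libraries labelled PD-1 KO, against 1, 1 and 2.47 in those labelled WT, where 1 is the floor. Hydin, a protein of the central pair of microtubules, had 202, 489 and 239 in the libraries labelled PD-1 KO, against 1, 1 and 1.86 in those labelled WT. Both Tekt1 and Hydin lay at the floor in 2 of the 3 WT libraries, so no fold is given for them. Replicate 2 labelled PD-1 KO held the highest value in all 4 of these genes.

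Myelin genes showed another distribution over the libraries. Mog, a surface protein of the myelin sheath, had 73.0, 91.6 and 84.3 in the libraries labelled PD-1 KO, against 23.3, 11.8 and 11.8 in those labelled WT (2.40 ± 0.33, adjusted p = 1.46e-06), and Mag, an adhesion protein of myelin, had 225, 273 and 291 in the libraries labelled PD-1 KO, against 75.3, 44.1 and 30.3 in those labelled WT (2.46 ± 0.24). Here the 3 libraries labelled PD-1 KO lay close together. WT replicate 1 was the highest of its group for 9 of the 10 myelin genes, against 4386 of the 13722 tested genes. Of 8 genes of oligodendrocyte precursors, 5 were higher and 0 lower (median 0.70), and 4 of these 8 differed from the same comparison at 2 h, where 1.33% of all genes differed upward and 0.175% downward. After quantile normalization 3 of the 8 were higher. Pdgfra, the growth factor receptor of these precursors, had 70.6, 161 and 127 in the libraries labelled PD-1 KO, against 44.6, 38.2 and 77.3 in those labelled WT (1.14 ± 0.37, adjusted p = 0.0165), with overlap between the labels. Pdgfra did not pass after quantile normalization (0.58, adjusted p = 0.193), nor without replicates 2 or 3 labelled PD-1 KO or WT replicates 1 or 2, each left out in turn (adjusted p = 0.0571 to 0.116). Of the 8 precursor genes, 2 were called without WT replicate 1, and 3 without WT replicate 2 or without replicate 1 or 3 labelled PD-1 KO.

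Neuronal genes moved both ways, with 3 of 10 higher and 3 lower, against 22% higher and 11.7% lower over all genes. Without replicate 1 or 3 of either label, each left out in turn, 1 was lower. Map2, a dendritic microtubule protein, was higher (1.69 ± 0.22), as was Stmn2, a protein of growing axons (1.64 ± 0.36), and so was Tubb3 (0.61 ± 0.20), a tubulin of neurons. Snap25, a protein of synaptic vesicle fusion, was lower, at 12.8, 11.9 and 9.75 in the libraries labelled PD-1 KO, against 46.7, 20.6 and 42.1 in those labelled WT (-1.51 ± 0.48, adjusted p = 0.0146). Gad1, which makes the transmitter GABA, was lower as well, at 3.21, 14.1 and 9.37 in the libraries labelled PD-1 KO, against 19.1, 32.3 and 15.5 in those labelled WT (-1.36 ± 0.41), and the third lower gene was Rbfox3 (-1.21 ± 0.47), a splicing factor of neurons. Tubb3 and Rbfox3 were named after their values were seen. After quantile normalization 2 neuronal genes were higher and 5 lower, and Tubb3 did not pass (0.07, adjusted p = 0.812). Rbfox3 did not pass after centring (-1.09, adjusted p = 0.0972). Snap25 did not pass without replicate 3 labelled PD-1 KO or WT replicates 1 or 3, each left out in turn (adjusted p = 0.0518 to 0.0727). Gad1 did not pass without replicate 1 labelled PD-1 KO or WT replicate 2, each left out in turn (adjusted p = 0.0779 to 0.121). Rbfox3 did not pass without replicates 1, 2 or 3 labelled PD-1 KO or WT replicates 1 or 3, each left out in turn (adjusted p = 0.0735 to 0.212). Tubb3 did not pass without replicates 2 or 3 labelled PD-1 KO or WT replicates 2 or 3, each left out in turn (adjusted p = 0.0548 to 0.0686). Of 8 fibroblast and vascular genes 6 were higher and 0 lower (median 1.70), and of 25 collagens, laminins and other matrix genes 19 were higher and 0 lower (median 1.64). After quantile normalization these 2 lists had 3 and 16 higher members, and the fibroblast list had 3 without replicate 2 labelled PD-1 KO or without WT replicate 2. Sparc, a secreted matrix glycoprotein, had 4636, 8909 and 5177 in the libraries labelled PD-1 KO, against 1094, 623 and 723 in those labelled WT (2.92 ± 0.24), and Col3a1, a fibrillar collagen, had 40.9, 180.3 and 73.5 in the libraries labelled PD-1 KO, against 5.31, 7.35 and 13 in those labelled WT (3.20 ± 0.70), with replicate 2 the highest again. The file held 0 of 13 markers of neutrophils, lymphocytes and red cells.

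Reactive astrocyte and acute-phase genes were mostly higher as well: 11 of 14 were higher and 1, Saa3 (-0.94 ± 0.24), was lower (median 2.62). Lcn2, an iron-binding acute-phase protein, had 1933, 2662 and 2054 in the libraries labelled PD-1 KO, against 136, 147 and 127 in those labelled WT (4.0 ± 0.32). Complement component C3, the hub of the complement cascade, had 5709.8, 8847 and 7118 in the libraries labelled PD-1 KO, against 413, 349.9 and 473 in those labelled WT (4.12 ± 0.23, adjusted p = 1.81e-13), and C4b, which acts upstream of C3, had 601, 1149.8 and 602 in the libraries labelled PD-1 KO, against 15.9, 20.6 and 14.2 in those labelled WT (5.4 ± 0.44). Serping1, the inhibitor of the C1 complex, had 89.1, 156 and 95.2 in the libraries labelled PD-1 KO, against 7.43, 1 and 6.80 in those labelled WT, with 1 WT library at the floor. Among 17 complement genes in all, 6 were higher and 2, C2 and C5ar1 (-0.27 ± 0.10), were lower (median 0.17), against 22% higher and 11.7% lower over all genes. C5ar1 did not pass after quantile normalization or centring (-0.16 and -0.14), and it did not pass without replicates 1 or 2 labelled PD-1 KO or WT replicates 1 or 3, each left out in turn (adjusted p = 0.0513 to 0.302). C1qa, a chain of the C1q recognition unit made by microglia, was not called (-0.28 ± 0.18, adjusted p = 0.244). C2, the protease partner of C4, stood apart from C3 and C4b: it was lower, at 48.1, 60.0 and 59.6 in the libraries labelled PD-1 KO, against 284, 288 and 276 in those labelled WT (-2.33 ± 0.22, adjusted p = 2.09e-09). How much of the higher complement values came with the higher astrocyte markers was not tested.

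Microglial identity genes did not move as 1 block. Of 14 homeostatic genes 4 were higher and 5 lower (median -0.13), against 22% higher and 11.7% lower over all genes. Olfml3, a secreted glycoprotein of homeostatic microglia (chromosome 3, 103722222 to 103738001), was the furthest below WT of the genes that the naming rule covers: it had 20.9, 27.9 and 24.4 in the libraries labelled PD-1 KO, against 499.8, 512 and 545 in those labelled WT (-4.36 ± 0.22, adjusted p = 3.42e-14). Fcrls, an Fc receptor-like protein of microglia, had 2140.5, 2106 and 2292 in the libraries labelled PD-1 KO, against 5848, 6122 and 5741 in those labelled WT (-1.44 ± 0.18), and Gpr34, a lysophosphatidylserine receptor, had 145, 173 and 174 in the libraries labelled PD-1 KO, against 348, 428 and 381 in those labelled WT (-1.23 ± 0.22). Mertk, the receptor kinase for apoptotic cell uptake, was lower as well (-0.83 ± 0.13). In the other direction, Cx3cr1, the fractalkine receptor, had 1038, 1085 and 1214 in the libraries labelled PD-1 KO, against 536, 618 and 656 in those labelled WT (0.88 ± 0.19, adjusted p = 3.78e-04). P2ry12, the ADP receptor that guides microglial processes, was higher by 0.56 ± 0.20 (adjusted p = 0.0318), Sall1, a transcription factor of microglia, by 0.89 ± 0.17, and Gpr84, a receptor for medium-chain fatty acids, by 1.82 ± 0.17. Replicate values of Olfml3, Fcrls, Gpr34, Mertk, Cx3cr1 and P2ry12 did not overlap between the labels. P2ry12 did not pass after quantile normalization (0.02, adjusted p = 0.960), nor without replicates 2 or 3 labelled PD-1 KO or WT replicate 3, each left out in turn (adjusted p = 0.0740 to 0.252).

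The other decreases with the largest folds included several macrophage genes. Cd300ld, an activating receptor of the CD300 family, had 82.6, 82.0 and 99.3 in the libraries labelled PD-1 KO, against 477, 591 and 516 in those labelled WT (-2.57 ± 0.16), and AF251705, a gene that the annotation did not place, had 331, 289.8 and 314 in the libraries labelled PD-1 KO, against 1992, 1920.2 and 1825 in those labelled WT (-2.61 ± 0.11). Cd5l, a secreted scavenger protein of macrophages, had 79.4, 82.9 and 77.6 in the libraries labelled PD-1 KO, against 382, 316 and 276 in those labelled WT (-2.00 ± 0.23). Fabp4, a fatty acid carrier, was lower (-1.64 ± 0.15), as was Mcm6, a subunit of the replicative helicase (-1.78 ± 0.14). Tmem104, a membrane protein, had 415, 364 and 436 in the libraries labelled PD-1 KO, against 1615, 1585 and 1737 in those labelled WT (-2.02 ± 0.10, adjusted p = 2.13e-14). Each of these 6 genes was also lower in the untreated libraries of the same time, with log2 fold changes of -1.96, -2.61, -2.02, -1.26, -1.78 and -2.01 in the order named. Among 16 lineage transcription factors, 7 were lower and 2 higher (median -0.29). Cebpa, a myeloid factor, was lower (-0.77 ± 0.13), while Cebpb, a factor of inflammatory gene expression, was higher (0.59 ± 0.16), with Sall1 the other higher one. After centring on the microglial markers, 3 factors were lower and 2 higher, and without replicate 2 labelled PD-1 KO 4 were lower.

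**Figure D3:**
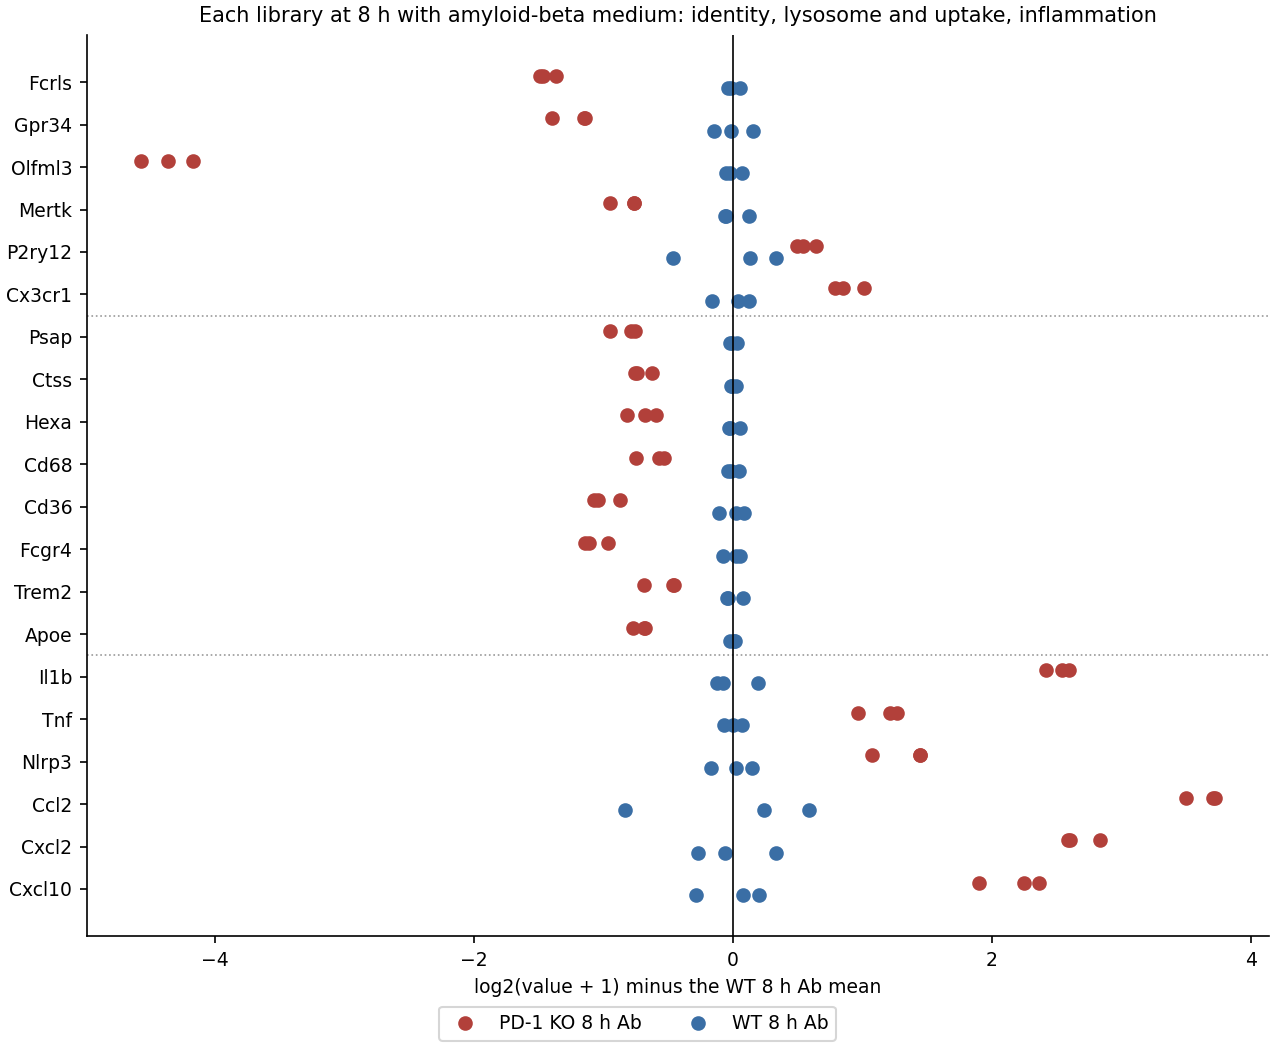
Each library's log2(value + 1) minus the mean of the 3 WT libraries, for 20 genes of microglial identity, lysosome and uptake, and inflammation (red, libraries labelled PD-1 KO; blue, libraries labelled WT). The red and blue points of a gene do not overlap; lysosome and uptake genes lie to the left and inflammation genes to the right.

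Lysosomal genes were lower as a group, by small amounts. Of 39 cathepsins and lysosomal genes, 30 were lower and 3 higher under the PD-1 KO label, against 11.7% of all genes lower. The median log2 fold change of the list was -0.47, against -0.03 over all genes. Psap, the precursor of the saposins that activate lipid-degrading enzymes, had 66297, 58076 and 64850.2 in the libraries labelled PD-1 KO, against 109946, 114266 and 111633 in those labelled WT (-0.83 ± 0.12, adjusted p = 3.10e-06). Ctss, a cysteine cathepsin of antigen-presenting cells, had 8663, 8006 and 7906 in the libraries labelled PD-1 KO, against 13206, 13559 and 13294 in those labelled WT (-0.71 ± 0.11), and Hexa, a chain of the hexosaminidases, had 12741, 10932 and 12021 in the libraries labelled PD-1 KO, against 19984, 18792 and 18922 in those labelled WT (-0.70 ± 0.13). Cd68, a lysosomal membrane glycoprotein of macrophages, was lower (-0.62 ± 0.11). Ctse, an aspartic protease, was the exception, with 407, 380.3 and 439.7 in the libraries labelled PD-1 KO, against 12.7, 14.7 and 8.66 in those labelled WT (5.00 ± 0.28, adjusted p = 3.15e-13). The other 2 higher members were Ctsf (0.39 ± 0.14) and Ids (0.45 ± 0.16), named here after their values were seen. Ctsf did not pass after quantile normalization (0.21, adjusted p = 0.242), nor without replicates 2 or 3 labelled PD-1 KO or WT replicates 1, 2 or 3, each left out in turn (adjusted p = 0.0536 to 0.136). Ids did not pass without replicate 2 labelled PD-1 KO or WT replicates 1, 2 or 3, each left out in turn (adjusted p = 0.0535 to 0.152). The list of general microglial markers itself had 5 members lower and 2 higher (median -0.23), and it shares Cd68 and Ctss with the lysosomal list. Centred on those markers, 27 lysosomal genes were lower and 3 higher, with a median of -0.34. Quantile normalization left 20 lower and 3 higher with a median of -0.23, and with a minimum fold of 1.5 none was lower.

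Of 31 phagocytic receptors and uptake genes, 12 were lower and 2 higher (median -0.26), against 11.7% lower and 22% higher over all genes. After quantile normalization 9 were lower and 4 higher (median -0.12), and after centring 8 were lower and 3 higher (median -0.13). Over all 13722 genes, 3113 were lower and 2151 higher after quantile normalization, with the same rounded median of -0.12. After centring, 528 of all genes were lower and 3012 higher (median 0.10). Cd36, a scavenger receptor that binds amyloid-beta and oxidised lipids, had 45469.5, 39625 and 40577 in the libraries labelled PD-1 KO, against 77482, 88463 and 84555 in those labelled WT (-1.0 ± 0.14, adjusted p = 2.04e-06). Fcgr4, an activating Fc receptor, had 217, 191 and 196 in the libraries labelled PD-1 KO, against 400.0, 431 and 438 in those labelled WT (-1.07 ± 0.14), and Fcgr3, another, was lower (-0.57 ± 0.14). Marco, a class A scavenger receptor, was higher, at 284, 346 and 281 in the libraries labelled PD-1 KO, against 67.9, 80.9 and 66.8 in those labelled WT (2.06 ± 0.24). The other higher member was Pros1 (0.31 ± 0.10), a bridging ligand for Mertk, named after its values were seen. Of the 31 genes, 17 did not pass the test.

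The TREM2 axis and the genes of disease-associated microglia, the state seen around plaques, were mostly lower: 13 of 19 were lower and 2 higher (median -0.52). Trem2 itself had 10836, 9266 and 10859 in the libraries labelled PD-1 KO, against 15760.3, 14482 and 14468 in those labelled WT (-0.53 ± 0.15, adjusted p = 0.00590), and Tyrobp, its signalling adaptor, was lower (-0.67 ± 0.14). Apoe, a lipid carrier and TREM2 ligand, had 84284, 79379 and 84639 in the libraries labelled PD-1 KO, against 136350.0, 136870.0 and 133818 in those labelled WT (-0.71 ± 0.18, adjusted p = 0.00250). Gpnmb, a glycoprotein of lipid-laden macrophages, had 23016, 19094 and 21772 in the libraries labelled PD-1 KO, against 64463, 66774 and 66049.6 in those labelled WT (-1.63 ± 0.12). The 2 higher members were Csf1, a growth factor for microglia (1.48 ± 0.16), and Cst7, a cathepsin inhibitor (1.43 ± 0.20). After quantile normalization 5 members were lower and 5 higher (median -0.20), and after centring 12 were lower and 2 higher (median -0.39). Neither Trem2 (-0.22, adjusted p = 0.0937) nor Apoe (-0.20, adjusted p = 0.188) passed after quantile normalization. Apoc1 and Apoc2, apolipoproteins encoded beside Apoe, were lower (-1.19 ± 0.25 and -1.58 ± 0.32).

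Genes that degrade amyloid-beta or restrain its proteases were more often higher than lower: 9 of 18 were higher and 1, Ece1 (-0.40 ± 0.11), was lower (median 0.47). Ece1 did not pass after centring (-0.28, adjusted p = 0.265). Mmp9, a secreted metalloproteinase, had 242, 221 and 259 in the libraries labelled PD-1 KO, against 31.8, 22.1 and 29.1 in those labelled WT (3.09 ± 0.20). Plat, the tissue plasminogen activator, had 465, 801 and 517 in the libraries labelled PD-1 KO, against 104, 69.1 and 72.4 in those labelled WT (2.83 ± 0.24), and A2m, a broad protease inhibitor, had 1572, 2744 and 1979 in the libraries labelled PD-1 KO, against 119.9, 101 and 161 in those labelled WT (4.02 ± 0.37). Timp3 and Timp1, inhibitors of metalloproteinases, were higher by 2.82 ± 0.27 and 2.16 ± 0.40. Plat, A2m and Timp3 were highest in replicate 2 labelled PD-1 KO, and Mmp9 was not. That library was the highest of its group for 5793 of the 13722 tested genes. The part of astrocyte RNA in these values was not tested. Among 13 APP and secretase genes, 3 were higher and 1 lower, close to the 22% and 11.7% over all genes. The median of this list was -0.11, but 0.08 after quantile normalization and 0.01 after centring. Bace2, a relative of the beta-secretase, had 181, 316 and 217 in the libraries labelled PD-1 KO, against 15.9, 7.35 and 16.1 in those labelled WT (4.12 ± 0.31), and Psen2, a catalytic subunit of gamma-secretase, was lower (-0.33 ± 0.11, adjusted p = 0.0277). Bace1, the beta-secretase, was not called (0.36 ± 0.17, adjusted p = 0.121). The other 2 higher genes were Aph1b (0.49 ± 0.16), a gamma-secretase subunit, and Adam17 (0.27 ± 0.10), an alpha-secretase. Aph1b did not pass without replicate 2 labelled PD-1 KO (adjusted p = 0.0809). Adam17 did not pass with TMM factors (0.26, adjusted p = 0.0668), nor without replicates 1 or 3 labelled PD-1 KO or WT replicates 1 or 2, each left out in turn (adjusted p = 0.0682 to 0.108). Psen2 did not pass after quantile normalization or centring (-0.24 and -0.20), nor without replicate 2 labelled PD-1 KO or WT replicates 1, 2 or 3, each left out in turn (adjusted p = 0.0603 to 0.155).

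Chemokines were higher: 10 of 14 were higher and 0 lower (median 1.38), against 22% higher and 11.7% lower over all genes. After quantile normalization 9 were higher and 0 lower. Ccl2, which draws monocytes, had 72.2, 71.4 and 61.8 in the libraries labelled PD-1 KO, against 2.12, 7.35 and 5.57 in those labelled WT (3.64 ± 0.49, adjusted p = 7.84e-07). Cxcl2, a neutrophil attractant, had 969.9, 818 and 828 in the libraries labelled PD-1 KO, against 112, 171 and 129.9 in those labelled WT (2.67 ± 0.33), and Cxcl10, an attractant of T cells, had 93.9, 102 and 73.8 in the libraries labelled PD-1 KO, against 20.2, 22.1 and 15.5 in those labelled WT (2.17 ± 0.26). Of 20 NF-kB pathway genes 11 were higher and 2 lower (median 0.41), against the same 22% and 11.7% over all genes. Traf1, a relay of TNF receptors, was higher (3.64 ± 0.45), as were Tnip3 (1.68 ± 0.15), Nfkbiz (1.15 ± 0.15) and Nfkbia (0.80 ± 0.11), which are feedback regulators of the pathway. The 2 lower members were Bcl2a1b (-0.46 ± 0.13) and Ikbkb (-0.29 ± 0.08), named after their values were seen. Ikbkb did not pass after centring (-0.16, adjusted p = 0.370), nor without replicate 2 labelled PD-1 KO (adjusted p = 0.0581). Replicate 1 labelled PD-1 KO was the highest of its group for 13 of the 20 NF-kB genes and replicate 2 for 1 of them. Over all 13722 tested genes, replicate 1 was the highest for 4198 and replicate 2 for 5793.

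Cytokines of the IL-1 and TNF families split, with 5 of 13 genes higher and 4 lower (median 0.13). Over all genes, 22% were higher and 11.7% lower. After quantile normalization 4 were higher and 6 lower (median -0.27), and after centring 5 were higher and 2 lower. Il1b had 123, 112 and 127 in the libraries labelled PD-1 KO, against 23.3, 19.1 and 18.6 in those labelled WT (2.52 ± 0.33, adjusted p = 5.78e-07). Tnf had 1485, 1210.0 and 1429 in the libraries labelled PD-1 KO, against 588, 649.9 and 617 in those labelled WT (1.15 ± 0.15, adjusted p = 3.89e-07), and Nlrp3, the sensor of the inflammasome that matures IL-1 beta, had 896, 696 and 896 in the libraries labelled PD-1 KO, against 335, 293 and 364 in those labelled WT (1.32 ± 0.14). Il1r1, the receptor for IL-1, was higher by 2.46 ± 0.42. Pycard, the adaptor of the inflammasome, was lower (-0.61 ± 0.15). The other higher gene was Il1rap (0.48 ± 0.17) and the other lower ones were Casp1 (-0.39 ± 0.12), Tnfrsf1a (-0.36 ± 0.07) and Tnfrsf1b (-0.41 ± 0.11), named after their values were seen. Il1rap did not pass after quantile normalization (0.28, adjusted p = 0.157), nor without replicates 1 or 2 labelled PD-1 KO or WT replicate 2, each left out in turn (adjusted p = 0.0541 to 0.225). Casp1 did not pass without replicate 2 labelled PD-1 KO (adjusted p = 0.0537), and neither Casp1 (-0.26) nor Tnfrsf1a (-0.24) passed after centring. Of 18 Toll-like receptor genes, 7 were lower and 2 higher (median -0.26), against 11.7% lower and 22% higher over all genes. Tlr2 (1.0 ± 0.10) and Cd14 (0.88 ± 0.13), which together sense bacterial lipids and amyloid fibrils, were the 2 higher ones. Tlr8 (-0.79 ± 0.14) and Tlr1 (-0.75 ± 0.17) were lower. The 18 MHC class I and peptide loading genes held 0 higher and 8 lower (median -0.33), against 22% higher and 11.7% lower over all genes. B2m, the shared light chain, was lower (-0.54 ± 0.12), and H2-D1 likewise (-0.54 ± 0.12). B2m did not pass after quantile normalization (-0.20, adjusted p = 0.194). The class I list had 4 lower after centring, and 4 without replicate 2 labelled PD-1 KO or without WT replicate 1. Class II genes varied within the WT group. Cd74, the invariant chain, had 196, 182 and 193 in the libraries labelled PD-1 KO, against 84.9, 36.8 and 30.9 in those labelled WT (2.03 ± 0.52, adjusted p = 0.00300), and H2-Ab1 had 21.7, 30.1 and 20.2 in the libraries labelled PD-1 KO, against 21.2, 2.94 and 1.86 in those labelled WT (1.97 ± 0.99, adjusted p = 0.133), with WT replicate 1 well above the other WT libraries in both. Without WT replicate 1, H2-Ab1 passed the test (2.88, adjusted p = 0.0420).

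The promoter stretches of 3 of these inflammatory genes are shown because each holds the kB core GGGANTTTC, the letters that NF-kB subunits bind. They run from 130 to 51 bases before the annotated start, 5′ to 3′ on the strand of the gene (RefSeq, GRCm38.p6), with matches on either strand in capitals. They lie at chr5:90903769-90903848 (plus strand) for Cxcl2, chr5:90891115-90891194 (plus) for Cxcl1 and chr12:55492698-55492777 (minus) for Nfkbia.
Cxcl2: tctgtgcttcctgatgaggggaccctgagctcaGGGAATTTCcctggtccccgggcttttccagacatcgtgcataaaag
Cxcl1: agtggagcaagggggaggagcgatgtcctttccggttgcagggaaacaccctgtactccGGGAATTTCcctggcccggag
Nfkbia: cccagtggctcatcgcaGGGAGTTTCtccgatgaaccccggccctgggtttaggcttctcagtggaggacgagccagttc
Cxcl1, like Cxcl2 a neutrophil attractant, had 85.8, 59.5 and 69.3 in the libraries labelled PD-1 KO, against 8.49, 32.3 and 18.6 in those labelled WT (1.97 ± 0.39). In windows of 250 bases before to 50 after the start, the core stood in 2 of 9 chemokine genes with a window (22.2%) and in 2 of 16 NF-kB pathway genes (12.5%), against 1.18% of the 10418 tested genes with a window. A search for the X-box letters GTTGCCATG, also on both strands, found them in 0 of 15 cilia genes with a window (0%), against 0.787% of the tested genes. A match describes letters only, and no match says only that these letters are not in the window.

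Interferon-induced genes went in both directions, and most of them differed between the 8 h and the 2 h comparison. At 8 h with amyloid-beta, 3 of 25 interferon-induced genes were higher and 7 lower, with 15 not called (median -0.26). Over all genes, 22% were higher and 11.7% lower. Ifit3 (chromosome 19, 34583531 to 34588731), an inhibitor of viral RNA translation, had 211, 234 and 171 in the libraries labelled PD-1 KO, against 56.2, 64.7 and 69.9 in those labelled WT (1.67 ± 0.31, adjusted p = 8.50e-05). Ifit1 had 96.3, 78.6 and 66.3 in the libraries labelled PD-1 KO, against 30.8, 32.3 and 30.3 in those labelled WT (1.32 ± 0.39), and Ifit2 had 186, 186 and 179 in the libraries labelled PD-1 KO, against 58.4, 82.3 and 53.8 in those labelled WT (1.51 ± 0.35), both of the same family. Oas2, an enzyme that senses double-stranded RNA, had 17.6, 20.3 and 21 in the libraries labelled PD-1 KO, against 73.2, 75 and 61.2 in those labelled WT (-1.77 ± 0.34, adjusted p = 1.57e-04), and Ifi27l2a was lower (-1.32 ± 0.32). Irf7, the transcription factor that amplifies interferon production, did not pass the test (45.7, 46.5 and 64.8 in the libraries labelled PD-1 KO, against 55.2, 55.9 and 62.5 in those labelled WT; -0.16 ± 0.25, adjusted p = 0.671). After quantile normalization 2 members were higher and 13 lower (median -0.64). Ifit1 then did not pass (0.58, adjusted p = 0.261), while Irf7 (-0.80), Mx1 (-1.27) and Oas3 (-2.04) passed as lower.

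Parts of 4 interferon-induced promoters are shown, from the same window and source, because they carry the core of the interferon response element, GAAANNGAA, whether or not the gene was higher at 8 h. They lie at chr19:34583399-34583478 (plus strand) for Ifit3, chr19:34640759-34640838 (plus) for Ifit1, chr12:26456503-26456582 (minus) for Rsad2 and chr5:120777710-120777789 (minus) for Oas3. Capitals mark matches on either strand, and matches that overlap run together.
Ifit3: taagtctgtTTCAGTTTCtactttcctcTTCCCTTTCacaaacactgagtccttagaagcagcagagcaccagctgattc
Ifit1: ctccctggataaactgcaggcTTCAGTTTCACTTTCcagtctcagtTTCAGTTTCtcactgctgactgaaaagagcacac
Rsad2: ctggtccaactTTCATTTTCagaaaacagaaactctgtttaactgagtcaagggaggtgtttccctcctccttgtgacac
Oas3: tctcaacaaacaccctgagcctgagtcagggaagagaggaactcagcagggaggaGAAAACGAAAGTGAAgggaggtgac
The core stood in 11 of the 16 interferon-induced genes with a window (68.8%), against 8.65% of the 10418 tested genes with one. Of these 11 genes, 2 were higher, 2 were lower and 7 did not pass the test at 8 h with amyloid-beta. Rsad2, which makes an antiviral nucleotide, had 189, 116 and 144 in the libraries labelled PD-1 KO, against 64.7, 97.0 and 95.2 in those labelled WT (0.79 ± 0.40, adjusted p = 0.134), and Oas3 had 10.4, 7.79 and 9.75 in the libraries labelled PD-1 KO, against 18, 10.3 and 26.6 in those labelled WT (-0.82 ± 0.52, adjusted p = 0.242).

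The genotype difference at 8 h was then set against that at 2 h, both with amyloid-beta, by testing the difference of the 2 differences. It passed the threshold upward in 183 of 13722 genes (1.33%) and downward in 24 (0.175%). After centring on the microglial markers, with the median over all genes at -0.43 against 0.01 before, it passed upward in 84 and downward in 1503. With 1 library left out, 102 genes passed in all without replicate 2 labelled PD-1 KO at 2 h, 111 and 128 without replicates 3 and 2 labelled PD-1 KO at 8 h, and 126 without WT replicate 2 at 8 h. Of the 25 interferon-induced genes 21 passed upward and 0 downward, and over the alternatives tried 17 to 24 passed upward, except for 8 with a minimum fold of 1.5. Their median genotype difference was -0.26 at 8 h with amyloid-beta and -2.11 at 2 h with it, where 5341 genes (38.9%) were called in all. For Oas3 the log2 difference was -0.82 ± 0.52 at 8 h and -5.47 at 2 h, and the 2 differed by 4.65 ± 0.74 (adjusted p = 7.43e-04). For Ifit3 it was 1.67 ± 0.31 at 8 h and -1.56 at 2 h, differing by 3.23 ± 0.44 (adjusted p = 1.85e-04). Over the alternatives tried, these 2 differences ran from 3.43 to 5.15 for Oas3 and from 2.79 to 3.44 for Ifit3. Mx1, a GTPase against viruses, had -0.37 ± 0.41 at 8 h and -4.12 at 2 h, and Usp18, a brake on interferon signalling, had 0.26 ± 0.28 at 8 h, where its sign turned under quantile normalization (-0.59), and -2.83 at 2 h. The upward set also held Il1b, with 2.52 ± 0.33 at 8 h and 0.03 at 2 h (difference 2.49 ± 0.47), Nlrp3, with 1.32 ± 0.14 and -0.06 at the same times, and Top2a, with 1.49 ± 0.20 and -0.04. Among downward genes, Hmox1, the haem-degrading enzyme, had -0.58 ± 0.15 at 8 h and 0.46 at 2 h (difference -1.05 ± 0.21, adjusted p = 0.00640). Slc40a1, the iron exporter ferroportin, had -1.01 ± 0.10 and -0.14. In the library titles, the numbers of the 8 h libraries lie apart from those of the 0 h and 2 h libraries. What these numbers stand for is not given, so time and number block cannot be told apart in this test. The cause of the change between the times was not tested.

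**Figure D4:**
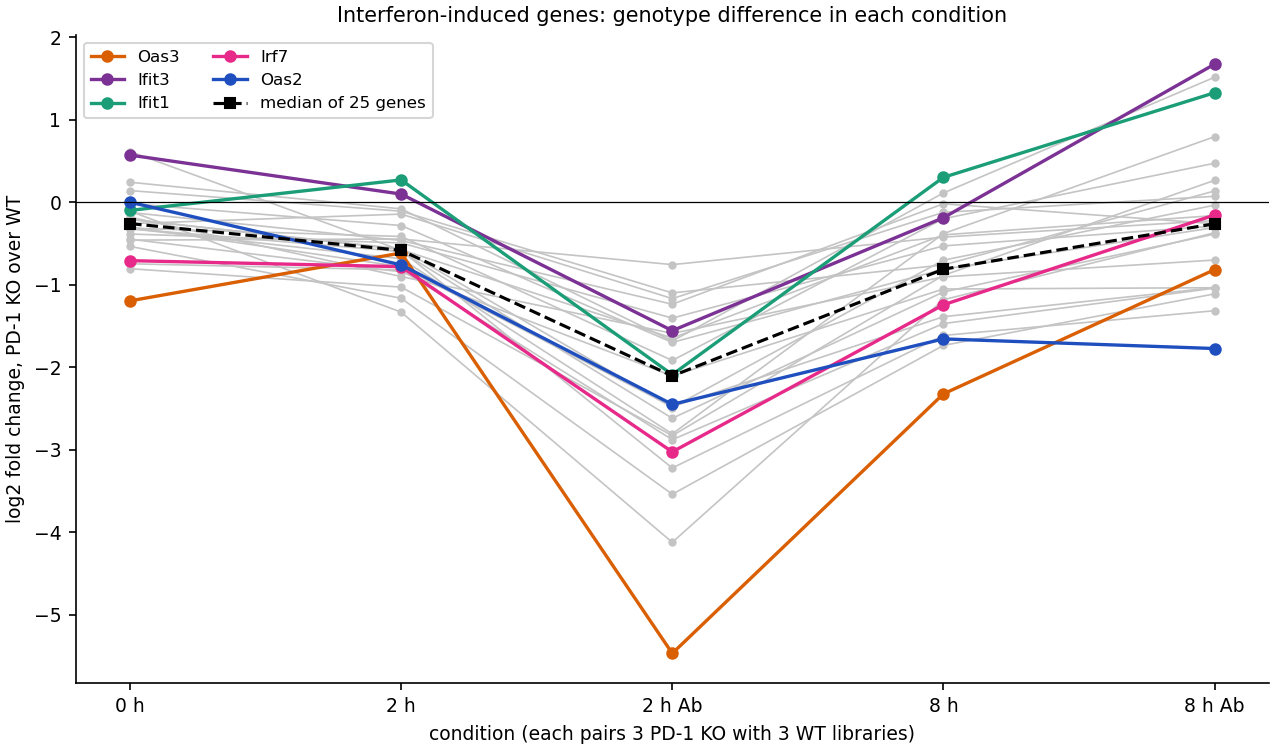
Log2 fold change between the genotype labels (PD-1 KO over WT) of the 25 interferon-induced genes in each of the 5 conditions, in order of time (Ab, amyloid-beta medium); 5 genes are coloured and the dashed line is the median of the list. The median lies at -2.11 at 2 h with amyloid-beta and at -0.26 at 8 h with it, where Ifit3 and Ifit1 lie above 1.

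Against the untreated libraries of the same time, the genotype difference did not change past the threshold in any gene. At 8 h without amyloid-beta, 3708 genes (27%) were called between the labels. The difference between the 2 differences passed in 0 of 13722 genes (0%) with limma, while 810 genes had an unadjusted p under 0.05. With no change in any gene, a share of about 0.05 of the 13722 genes would have such a p. Voom on the recovered reads also called 0, the fit with only the 4 groups called 5 and array weights called 192. Values for the leading genes can be set side by side. Gfap differed by 5.07 ± 0.34 with and 3.57 without amyloid-beta, Foxj1 by 4.92 ± 0.35 with and 3.04 without, and C3 by 4.12 ± 0.23 with and 2.68 without. Olfml3 (-4.36 ± 0.22 with, -4.12 without), Ctse (5.00 ± 0.28 and 5.06) and Cxcl2 (2.67 ± 0.33 and 2.13) kept their direction. The median of the lysosomal list was -0.47 with and -0.36 without amyloid-beta, and that of the interferon list -0.26 with and -0.81 without. A p that misses the threshold does not show that the 2 comparisons are alike.

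None of the 31 cytosolic ribosomal proteins (median -0.18) and none of the 23 nuclear subunits of oxidative phosphorylation (median -0.09) was called. Of 25 cell cycle and replication genes, 15 were higher and 3 lower (median 0.70, with 6 higher and 4 lower after quantile normalization). Top2a, a topoisomerase of dividing cells, had 226, 313 and 274 in the libraries labelled PD-1 KO, against 95.5, 92.6 and 96.5 in those labelled WT (1.49 ± 0.20), and Ccnb1, the mitotic cyclin B1, had 46.5, 75.5 and 67.1 in the libraries labelled PD-1 KO, against 27.6, 20.6 and 19.8 in those labelled WT (1.42 ± 0.37). For 17 of these 25 genes replicate 2 labelled PD-1 KO was the highest of its group, against 5793 of the 13722 tested genes. The 3 lower members were Mcm6, Pcna (-0.48 ± 0.09) and Cdt1 (-0.38 ± 0.14), the last 2 named after their values were seen. Ccnb1 did not pass after quantile normalization (0.61, adjusted p = 0.148). Cdt1 did not pass after centring (-0.25, adjusted p = 0.237), nor without replicates 1 or 2 labelled PD-1 KO or WT replicates 1 or 3, each left out in turn (adjusted p = 0.0788 to 0.210). Among 11 iron genes 6 were lower and 2 higher (median -0.27), against 11.7% lower and 22% higher over all genes. But 3 were lower and 4 higher after quantile normalization (median -0.03), and 4 lower and 3 higher after centring (median -0.14). Slc40a1 had 3143, 2911 and 2976 in the libraries labelled PD-1 KO, against 5843, 5952 and 6459 in those labelled WT (-1.01 ± 0.10, adjusted p = 3.47e-09) and Hmox1 was lower (-0.58 ± 0.15), though not past the threshold after quantile normalization (-0.30, adjusted p = 0.0615). In the other direction, Cp, a ferroxidase also made by astrocytes, was higher by 3.08 ± 0.21 and Steap3, an endosomal iron reductase, by 1.55 ± 0.13. Of 17 NRF2 and glutathione genes 7 were lower and 1 higher (Nqo1, 1.13 ± 0.26), with a median of -0.21. After quantile normalization 3 were lower and 3 higher (median -0.04), after centring 2 were lower and 1 higher (median -0.08), and without replicate 1 labelled PD-1 KO 3 were higher. The glucose transporter Slc2a1 was higher (1.16 ± 0.12).

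**Figure D5:**
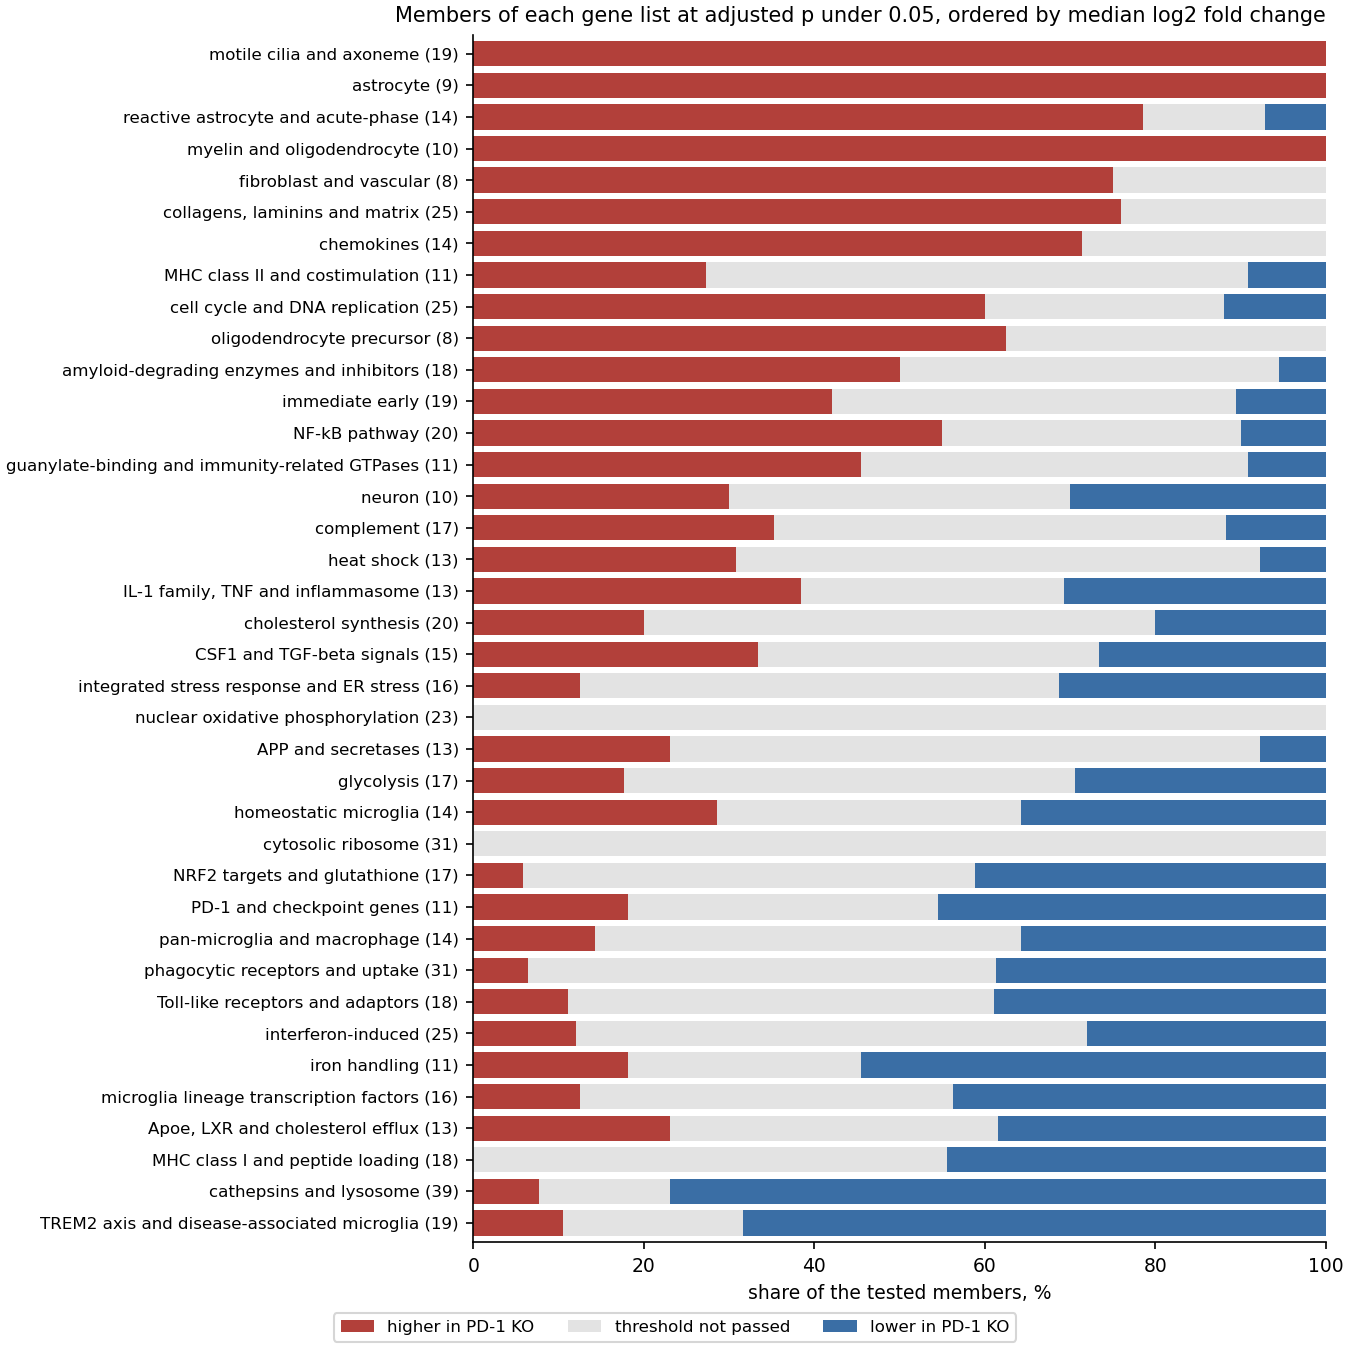
Share of the tested members of each gene list that were higher (red, left) or lower (blue, right) in the libraries labelled PD-1 KO at adjusted p under 0.05, with the number of tested members in brackets and lists ordered by median log2 fold change. Lists of cilia, astrocyte and myelin genes are wholly red, and those of lysosomal and TREM2 axis genes are mostly blue.

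Checkpoint genes other than Pdcd1 were partly lower. Of the 11 genes of this list, 5 were lower and 2, Pdcd1 among them, were higher. Over all genes, 11.7% were lower and 22% higher. Cd274, which encodes the ligand PD-L1, had 690.0, 580.1 and 632 in the libraries labelled PD-1 KO, against 798, 885 and 773 in those labelled WT (-0.37 ± 0.13, adjusted p = 0.0244). Lgals9, the ligand of TIM-3, had 444, 383 and 399 in the libraries labelled PD-1 KO, against 863, 956 and 820.0 in those labelled WT (-1.10 ± 0.15), and Havcr2, which encodes TIM-3, was lower (-0.56 ± 0.14). The inhibitory receptor Cd200r1 was lower (-0.65 ± 0.10), and its ligand Cd200, a protein of neurons, was higher (0.70 ± 0.26, adjusted p = 0.0374), but its sign turned under quantile normalization (-0.04). Cd200 did not pass after centring (0.83, adjusted p = 0.0558), nor without replicates 2 or 3 labelled PD-1 KO or WT replicates 1, 2 or 3, each left out in turn (adjusted p = 0.0595 to 0.170). Cd274 did not pass after centring (-0.24, adjusted p = 0.426), nor without replicates 2 or 3 labelled PD-1 KO or WT replicate 2, each left out in turn (adjusted p = 0.0562 to 0.123). The fifth lower gene is listed as 4632428N05Rik (-0.69 ± 0.11) and encodes VISTA.

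The neighbourhood of Pdcd1 on chromosome 1 was counted separately. Of 46 tested genes that start within 5 Mb of the start of Pdcd1, 20 were called (43.5%), 13 of them higher and 7 lower, against 33.7% of all genes. By chromosome the share ran from 29.3% on chromosome 17 to 39.3% on chromosome 1. D2hgdh, the nearest tested neighbour (213 kb away), had 88.2, 82.7 and 105 in the libraries labelled PD-1 KO, against 184, 143 and 169 in those labelled WT (-0.84 ± 0.17). Ing5, the next, did not pass the test (-0.34 ± 0.14), but passed after quantile normalization (-0.42, adjusted p = 0.0383). Bok, a BCL-2 relative 353 kb away, was higher, at 62.6, 102 and 58.1 in the libraries labelled PD-1 KO, against 5.31, 8.82 and 3.71 in those labelled WT (3.46 ± 0.38).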

How the data were processed

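RNA from primary mouse microglia was sequenced in 30 libraries, 3 for each of 10 groups of genotype, time and medium, and the groups were taken from the sample labels. Per the submitters' processing notes, the build was mm10 and the software included DESeq2, Partek 6.6, HISAT 0.1.5 and R 3.0.2, without roles; the annotation and the counting program are not given in the sources used here. The deposited values are a signal per gene: the authors scaled the gene counts of each library by its size factor and raised lower results to 1. Above that floor, 100% of values up to 5000 reads lay within 0.05 of a whole multiple of 1 step per library. The depth recovered from these steps was 4227019 to 48509985 reads per library, and the floor hid up to 4 reads.

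Genes with a value of at least 10 in at least 3 libraries were tested (13722 of 13788). A mean per group was fitted to log2(value + 1) over all 30 libraries in R 4.3.3 (limma 3.58.1, intensity trend, 20 residual degrees of freedom), with Benjamini-Hochberg adjustment over all genes tested. A fold change on this scale understates the change of low genes. The genotype difference at 8 h with amyloid-beta and its differences from those at 8 h without and at 2 h with amyloid-beta were tested. The code was tested on simulated data before use.

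The comparison, the 39 gene lists and the tests were chosen with earlier results of these data known. Genes were named by a rule: the up to 12 largest increases and decreases with no overlap and a mean at or above the median, up to 5 members per list by absolute log2 fold with a mean of at least 20 in a group, a fixed set, and up to 8 genes per direction of each difference of differences; the text gives part of them. Members of small counts outside that rule (Saa3, Ece1, C5ar1 and those marked in the text) were named after their values were seen, and some genes are not reported here. GENCODE M21 (GRCm38) placed 13697 of 13788 genes (99.3%), 409 of them through an older symbol, and promoter sequences are from RefSeq. Alternatives covered pseudocount, filter, scaling, variance model, voom on recovered reads, a minimum fold and each library left out. Tables and figures used Python 3.11.15, pandas 2.3.3, numpy 2.4.6 and matplotlib 3.10.9.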

Additional observations from a re-analysis of the deposited data

Results flagged for a closer look

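Among the genes named here, 22 differed in their genotype difference between 8 h and 2 h, both with amyloid-beta, by the limma test of that difference, and 19 of these had the higher difference at 8 h. Of the interferon-induced genes, the log2 difference (8 h minus 2 h) was 4.65 for Oas3, 3.75 for Mx1, 3.60 for Rsad2, 3.42 for Ifit1, 3.23 for Ifit3, 3.20 for Ifit2, 3.09 for Usp18, 2.87 for Irf7 and 1.91 for Ifi27l2a. Of the inflammatory genes it was 2.49 for Il1b, 1.38 for Nlrp3, 1.08 for Cd14, 1.0 for Tlr2, 0.82 for Nfkbiz and 0.69 for Bcl2a1b. The microglial genes Cx3cr1 and Fcrls had 1.29 and 0.99, the precursor gene Pdgfra 2.89 and the cell cycle gene Top2a 1.53. The genotype difference was lower at 8 h for Hmox1 (-1.05), Slc40a1 (-0.87) and Cd36 (-0.76). When each of the 12 libraries was left out in turn, the call was lost without 11 of them for Bcl2a1b, Cd36 and Fcrls, without 9 for Nfkbiz and without 6 for Ifi27l2a, with adjusted p of up to 0.133, and the other 17 genes passed each time. Past the threshold under every alternative tried were 7 of the 22: Ifit1, Ifit2, Ifit3, Irf7, Mx1, Rsad2 and Usp18.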

How the results depend on the processing

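The genotype comparison at 8 h with amyloid-beta called 4626 genes, and 3374 to 4343 with 1 library left out (lowest without replicate 2 labelled PD-1 KO). It called 1751 with a minimum fold of 1.5, 3540 after centring on the microglial markers, 5264 after quantile normalization and 6409 with array weights. Of 128 named genes past the threshold, 71 passed under every alternative tried for them. The sign turned for Cd200 (-0.040) and Usp18 (-0.59) under quantile normalization. The difference from the untreated libraries called 0 genes, but 5 with only the 4 groups in the fit, 192 with array weights and 0 to 3 with 1 library left out. The difference from 2 h called 207 genes, but 1587 after centring, 1650 with array weights, 9 with the minimum fold and 102 to 256 with 1 library left out. The cause of these shifts was not tested. The difference of Pdcd1 between the labels was 9.98 to 13.8 with 1 library left out. The planned edgeR test on recovered reads was not run, because reads under the floor cannot be recovered; the voom fit took floored values as 0 reads. No paired analysis was possible because the labels give no replicate numbers shared between the groups. Depth limits genes near the floor of 1, where up to 4 reads are hidden at 8 h with amyloid-beta where the label is PD-1 KO and up to 1 where it is WT; intervals and limits cover counting error only.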

Other observations

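Guanylate-binding proteins are large GTPases, induced mainly by interferon-gamma, that attack microbes inside cells. Of 11 guanylate-binding and immunity-related GTPases, 5 were higher, 1 was lower and 5 were not called (median 0.30), against 22% higher and 11.7% lower over all genes. After quantile normalization 4 were higher and 2 lower. Gbp2 had 248, 354 and 227 in the libraries labelled PD-1 KO, against 31.8, 39.7 and 33.4 in those labelled WT at 8 h with amyloid-beta (2.93 ± 0.21, adjusted p = 4.22e-11). Gbp5 had 27.3, 35.9 and 33.7 in the libraries labelled PD-1 KO, against 1.06, 1.47 and 2.47 in those labelled WT (3.67 ± 0.44). These WT values lay near the floor of 1, and the log2 difference of Gbp5 ran from 1.85 to 4.35 over the alternatives tried. Gbp3 had 46.5, 58.2 and 43.5 in the libraries labelled PD-1 KO, against 9.55, 8.82 and 4.95 in those labelled WT (2.56 ± 0.33). The groups did not overlap in any of these 3 genes. Gbp6 (2.26 ± 0.32) and Gbp7 (0.93 ± 0.31) were the other higher members, and Gbp9 (-1.08 ± 0.25) was the lower one. Gbp7 and Gbp9 were named after their values were seen. Gbp7 did not pass after quantile normalization (0.19, adjusted p = 0.599), nor without replicates 2 or 3 labelled PD-1 KO or WT replicate 1, each left out in turn (adjusted p = 0.0661 to 0.153). These genes are close relatives, and how reads that fit several of them were counted is not given in the sources used here. At 2 h with amyloid-beta the log2 fold changes were 2.35 for Gbp2, 3.62 for Gbp5 and 1.48 for Gbp3. None of the 6 genes called at 8 h passed the test of the difference between the times (adjusted p from 0.286 for Gbp3 upward). Of all 11 list members, however, 2 passed it upward and 0 downward, against 1.33% and 0.175% of all genes. At 2 h with amyloid-beta, 4 of the 11 were higher and 5 lower, with 38.9% of all genes called in either direction.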
